A study of Mus musculus with 13 samples.

Results

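Adipogenic and browning transcription factors were followed in gluteal white adipose tissue (WAT) of mice housed at a cool or a warm temperature. The set was defined by name and holds 10 of the 34419 genes in the count table. It comprises the 3 peroxisome proliferator-activated receptor genes (*Pparg*, *Ppara* and *Ppard*), 3 CCAAT/enhancer-binding protein genes (*Cebpa*, *Cebpb* and *Cebpd*), 2 early B cell factor genes (*Ebf1* and *Ebf2*) and the zinc finger genes *Prdm16* and *Zfp423*. All 10 were found in the table and all 10 passed edgeR's filter on low counts, with between 116 and 37472 counts in a library. Male C57BL/6J mice were bred and kept in thermal chambers at 22°C (n = 7) or 29°C (n = 6) until 13 weeks of age. In both groups the posterior hair was removed after weaning and each mouse lived alone with little bedding. Housing temperature was the one labelled difference between the groups. Each mouse gave 1 library, and all fold changes are 22°C relative to 29°C.

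Fat cells form from fibroblast-like progenitors through a relay of transcription factors. C/EBPβ and C/EBPδ are switched on early by hormones and cAMP and turn on the genes for PPARγ and C/EBPα, which then sustain each other and bind at most genes that define an adipocyte. PPARγ works as a dimer with a retinoid X receptor, EBF proteins help to open the sites where it binds, and ZFP423 commits progenitors to the fat lineage and holds back the thermogenic program in white fat. In brown and beige adipocytes, PRDM16 acts as a coregulator of C/EBPβ, PPARγ and EBF2, and PPARα drives genes of fatty acid oxidation.

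Promoter sequences of 3 members are shown because *Cebpb* had the smallest p-value of the set and *Cebpa* and *Pparg* had the highest levels. The sequences are the 250 bases before a start site in RefSeq on build GRCm38.p6, on the strand of the gene, and this build serves for these positions alone. A RefSeq promoter entry was found for 8 of the 10 members, with 12 entries in all, and *Cebpd* and *Ebf2* had none. Capitals mark a match on either strand to the cAMP response element half-site TGACG, the TATA box TATAAA or the C/EBP site TTGCNNAA, which do not share letters with each other in these windows. The *Cebpb* window is at chr2:167688665-167688914 on the plus strand.
Cebpb: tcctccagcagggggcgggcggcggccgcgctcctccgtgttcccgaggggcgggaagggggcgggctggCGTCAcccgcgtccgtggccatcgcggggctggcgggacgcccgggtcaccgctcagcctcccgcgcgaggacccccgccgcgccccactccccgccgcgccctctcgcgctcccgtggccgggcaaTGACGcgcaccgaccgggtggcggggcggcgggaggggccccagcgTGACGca
The *Cebpa* window is at chr7:35119043-35119292 on the plus strand.
Cebpa: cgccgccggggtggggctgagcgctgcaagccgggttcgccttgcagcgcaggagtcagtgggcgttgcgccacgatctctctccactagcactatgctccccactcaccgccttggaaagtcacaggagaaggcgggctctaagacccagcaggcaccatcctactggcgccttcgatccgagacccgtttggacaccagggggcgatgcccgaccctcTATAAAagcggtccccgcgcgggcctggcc
Of the 3 *Pparg* windows, the third and most downstream is shown because it held matches to the C/EBP site, and it is at chr6:115421816-115422065 on the plus strand.
Pparg start site 3: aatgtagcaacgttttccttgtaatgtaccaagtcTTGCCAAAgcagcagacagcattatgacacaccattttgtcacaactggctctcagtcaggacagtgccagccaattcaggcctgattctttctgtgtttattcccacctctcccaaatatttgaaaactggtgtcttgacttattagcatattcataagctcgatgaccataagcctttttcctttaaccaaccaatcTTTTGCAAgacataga
The *Cebpb* window held 3 half-sites TGACG, at 180 to 176, 53 to 49 and 7 to 3 bases before the start, the first of these on the minus strand. Among 32851 mouse promoter windows of the same length, 17.8% held at least one match to TGACG. The *Cebpa* window held a TATA box at 30 to 25 bases before the start, a motif present in 12.4% of all windows. The downstream *Pparg* window held 2 C/EBP sites, at 215 to 208 bases and, on the minus strand, at 16 to 9 bases before the start, where 9.56% of all windows held at least one. Of the *Pparg* windows not shown, the first held none of the 3 motifs and the second held a TATA box on the minus strand at 29 to 24 bases before the start. Of the other members, the *Ppara* window held 1 TGACG and the second *Zfp423* window 1 C/EBP site. These matches describe letters in the windows and were not tested for binding.

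The 13 libraries had total counts between 22356637 and 25245785. The totals fell into 2 clusters, with 22°C replicates 1 to 5 lower than the other two cool mice and the 6 warm mice. The lower cluster held mice of 1 temperature only, so temperature could be compared within the higher cluster alone, where 2 mice were housed at 22°C. No pair of the 78 pairs of libraries was as alike as sampling noise would make them, so each was counted as a replicate. The adipocyte markers *Adipoq*, *Plin1*, *Cidec*, *Lipe*, *Pnpla2*, *Retn*, *Cfd* and *Slc7a10* were all present, with a summed level of 20154 to 31114 CPM (counts normalized to library size) at 22°C, and 25385 to 32681 CPM at 29°C. Skeletal muscle genes varied most, and all 10 muscle markers had a positive log2 fold change, with sums of 688 to 78560 CPM in cool mice and 86.3 to 6098 CPM in warm mice. In bulk tissue, fewer cells of a type and less RNA per cell cannot be told apart.

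The members spanned a wide range of levels in gluteal WAT. Levels of different genes were compared as CPM per kilobase of exon, using exon lengths from GENCODE M21, over all 13 libraries. *Cebpa* was highest at 451 ± 71.1 CPM per kilobase (SD, n = 13), above 99.5% of the 17725 tested genes with a length. *Pparg* followed at 112 ± 15.6 CPM per kilobase and *Cebpb* at 56.8 ± 13.2 CPM per kilobase. *Cebpa* was above *Pparg*, *Pparg* above *Cebpb* and *Cebpb* above *Ebf1* in each of the 13 libraries, without overlap of their ranges. Next in order were *Ebf1* at 23.0 ± 4.02 CPM per kilobase, *Cebpd* at 13.8 ± 2.99, *Zfp423* at 8.99 ± 1.30 and *Ppard* at 7.19 ± 0.669, and the ranges of neighbours in this stretch overlapped. *Ebf2* had 4.97 ± 0.636 CPM per kilobase and lay below *Ppard* in every library. The lowest members were *Ppara* at 1.72 ± 0.362 CPM per kilobase and *Prdm16* at 1.5 ± 0.309, and *Ppara* was above *Prdm16* in 10 of the 13 libraries. These 2 factors, which are best known from brown fat and fatty acid oxidation, had levels above 30.6% and 28.1% of tested genes. *Ebf2*, which marks brown and beige precursors, was above 55.2%, and the general adipocyte regulators *Cebpa* and *Pparg* were near the top.

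Of the 10 members, none passed P-adj below 0.1 between 22°C and 29°C (edgeR's quasi-likelihood test, Benjamini-Hochberg adjustment over all 17779 genes tested), where 1.94% of all genes tested passed, 0.731% as higher and 1.21% as lower at 22°C. At an unadjusted p below 0.05, 2 members passed (*Cebpb* and *Ppara*, both higher at 22°C), beside 18.5% of all genes tested. With DESeq2, 1 member passed P-adj below 0.1, beside 10.2% of the 16388 genes to which it gave an adjusted p. The libraries of the 2 temperatures overlapped for every member, while 1.24% of all genes tested did not overlap. The log2 fold change was above 0 for 4 members and below 0 for 6, with a median of -0.03, beside a median of 0.01 over all genes tested. The standard errors (SE) of the members had a median of 0.13 on the log2 scale.

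**Figure D1:**
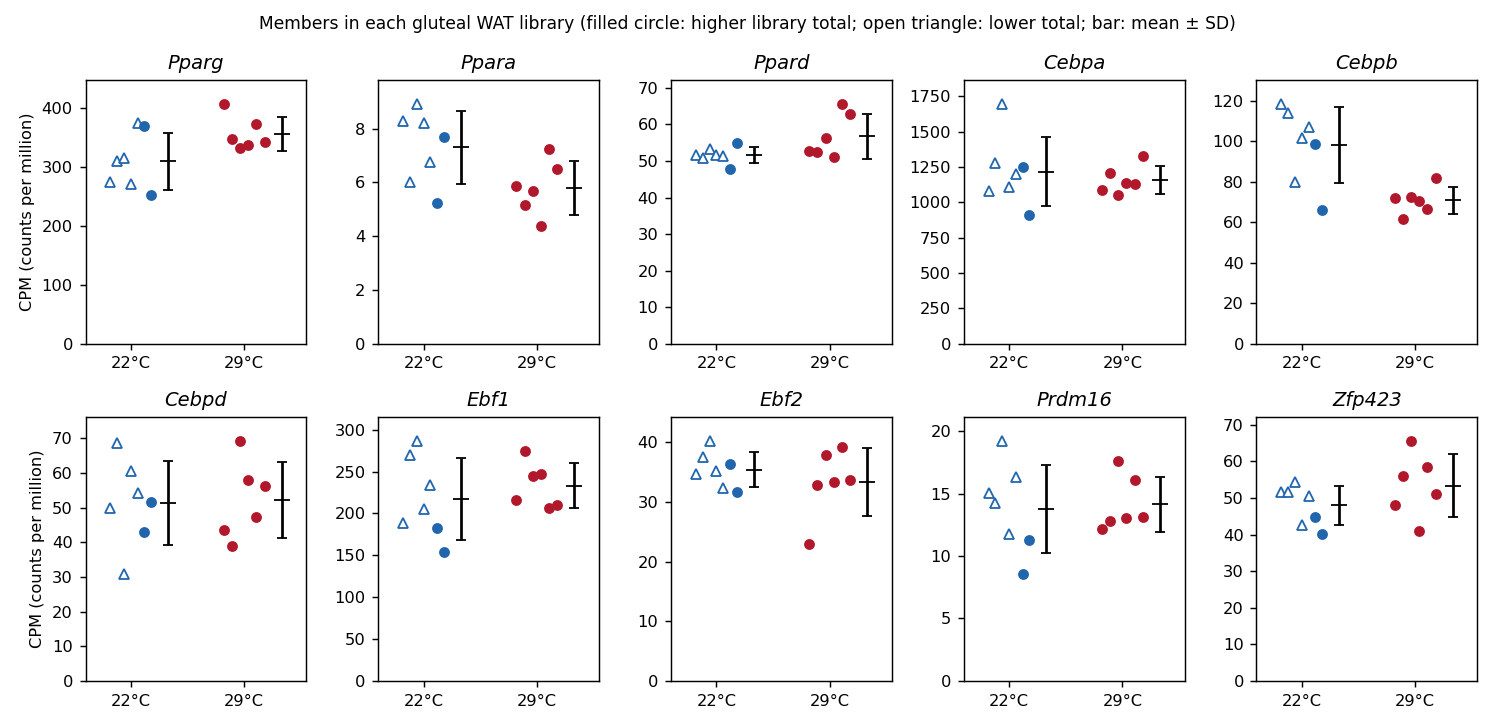
Level of each of the 10 members in every gluteal WAT library, in CPM (vertical axis, starting at 0), for 7 mice at 22°C and 6 mice at 29°C; filled circles are libraries with higher totals, open triangles libraries with lower totals, and the bar is the mean ± SD. *Cebpb* has 5 mice at 22°C above all 6 at 29°C, and every member shows overlap between the temperatures.

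Among the C/EBP genes, *Cebpb* was the member with the largest log2 fold change. *Cebpb* (ENSMUSG00000056501.4), the early and hormone-responsive C/EBP, was between 66.1 and 118 CPM at 22°C, with a median of 101 CPM, and between 61.7 and 81.9 CPM at 29°C, with a median of 71.2 CPM. The mice of 22°C replicates 1, 2, 4, 5 and 6 were above all mice at 29°C, replicate 3 at 80.0 CPM was below the highest of them, and replicate 7 was within the range of the warm mice. The means were 97.9 ± 18.7 CPM (SD, n = 7) and 70.8 ± 6.74 CPM (SD, n = 6). The log2 fold change was 0.47 (P-adj = 0.105, edgeR; SE 0.12, 95% interval 0.20 to 0.73), just outside the threshold, and *Cebpb* ranked 357 by p where 345 genes passed. Over 25 alternative fits, the log2 fold change of *Cebpb* stayed above 0 and its P-adj was between 0.0160 and 0.609. It passed with DESeq2 (P-adj = 0.0160), without 22°C replicate 7 (log2 fold change 0.54; P-adj = 0.0456, edgeR) and without 22°C replicate 3 (P-adj = 0.0999, edgeR). *Cebpb* also passed with the replicate number as a block (log2 fold change 0.54, P-adj = 0.0966, edgeR). No warm mouse has the number 7, so the block fit, like the fit without 22°C replicate 7, took no temperature difference from that library. Within the libraries with higher totals, its log2 fold change was 0.21 (P-adj = 0.607, edgeR; SE 0.15), and *Cebpb* in the 2 cool mice there was 98.7 and 66.1 CPM.

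Immediate early genes, which rise quickly in handled or dissected tissue and after hormone signals, lay in the same direction as *Cebpb*. All 8 listed (*Fos*, *Fosb*, *Jun*, *Junb*, *Egr1*, *Ier2*, *Dusp1* and *Atf3*) had a log2 fold change above 0, with a median of 0.47, and none passed P-adj below 0.1 (edgeR). Their summed level was 142 to 326 CPM at 22°C and 119 to 315 CPM at 29°C. After the mean of each temperature was subtracted, Pearson's r was taken with the log2 of the summed CPM of these genes. Across the 13 libraries, r was 0.20 for *Cebpb* and 0.57 for *Cebpd*. The part of these genes in the result for *Cebpb* was not tested.

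*Cebpa* and *Cebpd* differed between the temperatures by less than their errors. *Cebpa* (ENSMUSG00000034957.11), the C/EBP of mature adipocytes, was 909 to 1698 CPM at 22°C around a median of 1198 CPM, and 1054 to 1325 CPM at 29°C around 1131 CPM. Both the highest and the lowest of the 13 libraries were from 22°C, replicates 3 and 7. The log2 fold change of *Cebpa* was 0.07 (P-adj = 0.799, edgeR; SE 0.13, 95% interval -0.20 to 0.35). *Cebpd* (ENSMUSG00000071637.6), the partner of *Cebpb* in early adipogenesis, ranged from 30.8 to 68.7 CPM at 22°C with a median of 51.8 CPM, and from 39.1 to 69.2 CPM at 29°C with a median of 51.7 CPM. The cool and warm mice covered nearly the same range, and the log2 fold change was -0.03 (P-adj = 0.956, edgeR; SE 0.17, 95% interval -0.40 to 0.34). The interval for *Cebpd* leaves room for a modest difference in either direction.

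For the PPAR genes, the 3 members did not share a sign. *Pparg* (ENSMUSG00000000440.13), the master regulator of adipocyte formation, was between 252 and 375 CPM at 22°C, with a median of 309.8 CPM, and between 332 and 407 CPM at 29°C, with a median of 345 CPM. In 5 of 7 cool mice *Pparg* was below all warm mice, while 22°C replicates 5 and 6 lay among them. The means were 309.7 ± 48.4 CPM (SD, n = 7) and 357 ± 28.8 CPM (SD, n = 6), a log2 fold change of -0.20 (P-adj = 0.310, edgeR; SE 0.10, 95% interval -0.42 to 0.02). Counts per gene merge all *Pparg* start sites, so the PPARγ1 and PPARγ2 transcripts could not be told apart here. The value within the libraries with higher totals, -0.21 (P-adj = 0.612, edgeR; SE 0.15), was close to that over all libraries.
*Ppara* (ENSMUSG00000022383.14), the receptor best known for driving fatty acid oxidation, went the other way. Its level was 5.24 to 8.93 CPM at 22°C with a median of 7.69 CPM, and 4.36 to 7.24 CPM at 29°C with a median of 5.78 CPM. The level of *Ppara* in 4 cool mice was above all warm mice. Its log2 fold change was 0.33 (P-adj = 0.251, edgeR; SE 0.15, 95% interval 0.01 to 0.65), and the value was 0.15 (P-adj = 0.826, edgeR; SE 0.22) within the libraries with higher totals. *Ppard* (ENSMUSG00000002250.17), the widely expressed member of the family, was the steadiest at 22°C, with 47.8 to 54.8 CPM and a median of 51.6 CPM, against 51.0 to 65.7 CPM and a median of 54.4 CPM at 29°C. In 3 of 6 warm mice *Ppard* was above all cool mice. The log2 fold change of *Ppard* was -0.14 (P-adj = 0.277, edgeR; SE 0.07, 95% interval -0.28 to 0.00).

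The EBF and zinc finger genes had small fold changes over all libraries. *Ebf1* (ENSMUSG00000057098.15), a factor of adipocytes and of B cells, was 154 to 286 CPM at 22°C (median 205 CPM) and 206 to 275 CPM at 29°C (median 231 CPM). The level of *Ebf1* in 4 of 7 cool mice was below all warm mice, but another cool mouse was the highest of all. Its log2 fold change was -0.10 (P-adj = 0.737, edgeR; SE 0.14, 95% interval -0.40 to 0.20). B cell markers were low in these libraries, with a sum of 1.58 to 35.5 CPM at 22°C and 2.48 to 24.3 CPM at 29°C, and r between them and *Ebf1* was 0.03 over 13 libraries. *Ebf2* (ENSMUSG00000022053.14), which marks brown and beige precursors, was 31.6 to 40.2 CPM at 22°C (median 35.2 CPM) and 22.9 to 39.2 CPM at 29°C (median 33.5 CPM). Apart from 29°C replicate 1, which was the lowest, all mice lay between 31.6 and 40.2 CPM, and the log2 fold change of *Ebf2* was 0.09 (P-adj = 0.701, edgeR; SE 0.11, 95% interval -0.14 to 0.32).
*Prdm16* (ENSMUSG00000039410.17), the coregulator of the brown and beige program, was 8.55 to 19.2 CPM at 22°C (median 14.2 CPM) and 12.2 to 17.6 CPM at 29°C (median 13.1 CPM). The cool mice lay both below and above the warm mice, with 3 of them below all mice at 29°C, and the coefficient of variation was 25.7% at 22°C against 15.4% at 29°C. *Zfp423* (ENSMUSG00000045333.16), the gene of the white fat commitment factor, was 40.2 to 54.4 CPM at 22°C (median 50.5 CPM) and 40.8 to 65.5 CPM at 29°C (median 53.5 CPM). In 3 of 6 warm mice *Zfp423* was above all cool mice, and its log2 fold change was -0.15 (P-adj = 0.460, edgeR; SE 0.11, 95% interval -0.38 to 0.07).
Some of these values moved when the comparison was kept to libraries of similar totals. Within the libraries with higher totals, *Ebf1* had a log2 fold change of -0.48 (P-adj = 0.269, edgeR; SE 0.14), *Prdm16* of -0.52 (P-adj = 0.317, edgeR; SE 0.19) and *Zfp423* of -0.34 (P-adj = 0.440, edgeR; SE 0.17). Each of these was further from 0 than over all libraries, none passed, and each rested on the same 2 mice at 22°C.

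**Figure D2:**
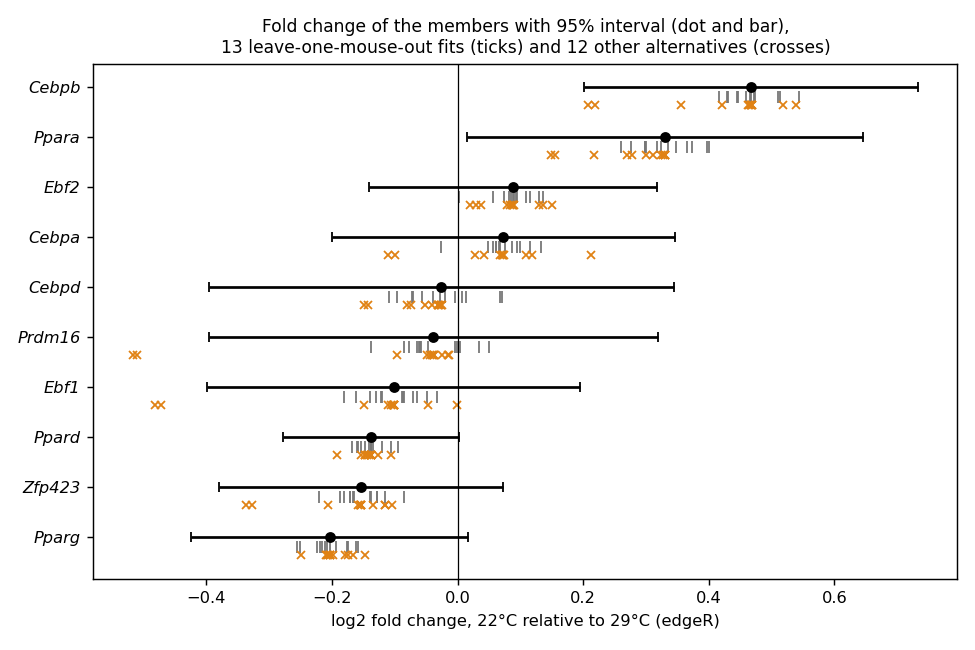
Log2 fold change of each member at 22°C relative to 29°C (horizontal axis; dot and 95% interval from edgeR), with 13 leave-one-mouse-out fits as ticks and 12 other alternatives as crosses. The intervals of *Cebpb* and *Ppara* lie above 0, and the crosses near -0.5 for *Ebf1* and *Prdm16* are the 2 fits that account for the cluster of library totals.

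Exons of 5 members overlap a gene on the opposite strand in GENCODE M21, and the strand setting of the counting was not given in the sources used here. *Tmem189* overlaps *Cebpb*, and its own log2 fold change was -0.02 (P-adj = 0.943, edgeR; SE 0.09). It had between 2113 and 3528 counts in a library, where *Cebpb* had 1461 to 2690. *Spidr* overlaps *Cebpd* and fell by 0.43 on the log2 scale (P-adj = 0.0856, edgeR; SE 0.10), with between 175 and 441 counts in a library. *Cebpa* shares exonic sequence with *Gm45091*, which had a log2 fold change of 0.20 (P-adj = 0.538, edgeR; SE 0.16) and between 2387 and 5627 counts in a library. *Ebf2* and *Prdm16* overlap *Gm10860* and *B230104I21Rik*, which had at most 182 and 20 counts in a library. Reads of a member and of its opposite-strand neighbour could not be told apart without the strand setting.

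Variation between mice at the same temperature was shared by some members. For this description, log2 CPM was centred on the mean of each temperature and Pearson's r was taken over the 13 libraries, which share differences in tissue makeup and library total. *Ppara* and *Ppard* varied together (r = 0.76), and they did so within each temperature (0.78 at 22°C and 0.89 at 29°C). *Prdm16* and *Zfp423*, factors with opposite roles in browning, also varied together (r = 0.69; 0.78 at 22°C and 0.76 at 29°C). *Cebpa* and *Ebf1* had r = 0.70, which came from the mice at 22°C (0.85) and was -0.10 at 29°C. *Cebpa* and *Cebpd*, the late and early factors of adipogenesis, had the lowest r of all pairs at -0.50. *Pparg* and *Cebpa*, which activate each other in cultured adipocytes, had r = 0.41 (0.53 at 22°C and -0.26 at 29°C).

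**Figure D3:**
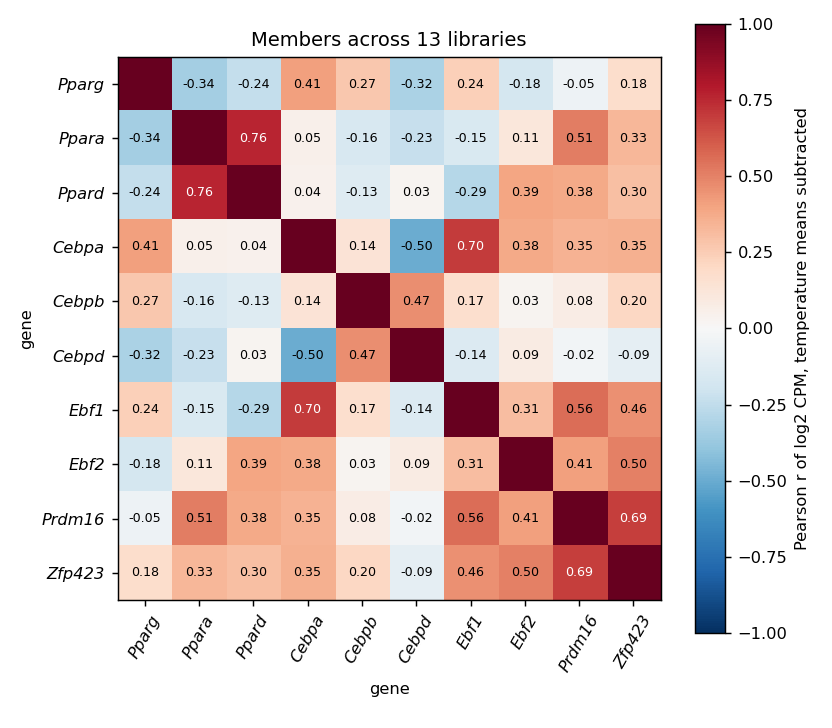
Pearson's r of log2 CPM between each pair of members (both axes list the genes) over 13 libraries after subtraction of the temperature means; red is positive and blue negative. The highest pair is *Ppara* with *Ppard* at 0.76 and the lowest is *Cebpa* with *Cebpd* at -0.50.

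Members also varied with the summed levels of marker and target genes to different degrees. *Cebpa* had r = 0.70 with the adipocyte markers, 0.77 with the PPARγ and C/EBPα target genes and -0.69 with the skeletal muscle markers. The marker and target lists share *Adipoq*, *Plin1*, *Cidec*, *Lipe*, *Pnpla2*, *Retn* and *Cfd*, so 0.70 and 0.77 are not separate observations. *Cfd* had medians of 13256 CPM at 22°C and 12868 CPM at 29°C, within adipocyte sums with medians of 28044 and 27783 CPM. *Car3* had medians of 19510 and 20131 CPM, within target sums with medians of 74823 and 81228 CPM. In the library of 22°C replicate 7, 6 of the 10 members (*Pparg*, *Cebpa*, *Cebpb*, *Ebf1*, *Ebf2* and *Zfp423*) had the lowest level among cool mice. That library also had the highest muscle sum, 78560 CPM, and the lowest adipocyte sum, 20154 CPM. The part of tissue makeup in these values was not tested. When the muscle score was added to the fit, the log2 fold change of *Cebpb* was 0.52 (P-adj = 0.193, edgeR; SE 0.14). *Prdm16* had r = -0.76 with the progenitor markers, 0.73 with the PPARα and PPARδ targets and 0.72 with the brown fat targets of PRDM16 and EBF2. These r values use the log2 of the summed CPM of each list. The sum of the brown fat targets (medians 588 CPM at 22°C and 516 CPM at 29°C) was mostly *Sod3* (medians 422 and 441 CPM). With the brown fat markers *Ucp1*, *Cidea*, *Cox8b*, *Dio2*, *Elovl3* and *Otop1*, of which *Cox8b* was the most abundant, r of *Prdm16* was -0.001. *Ppara* had r = 0.56 and *Ppard* r = 0.44 with the PPARα and PPARδ targets.

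Each member was then set beside the 11132 named genes with a mean of at least 5 CPM to find those that varied most like it. For *Ppara* the closest was *Ppargc1a* (r = 0.87; 0.90 at 22°C and 0.82 at 29°C), which encodes the coactivator PGC1α, followed by *Rsbn1* (r = 0.86). For *Pparg* they were *Tmem29* (r = 0.88) and *D6Wsu163e* (r = 0.87), with lower values at 29°C (0.50 and 0.42). *Ppard* was closest to *Trps1* (r = 0.89; 0.46 at 22°C and 0.97 at 29°C) and *Rhobtb2* (r = 0.87). *Cebpa* was closest to *Stam2* (r = 0.97) and *Hps4* (r = 0.93), and *Ebf1* to *Trappc6b* (r = 0.96) and *Cd59a* (r = 0.95). *Ebf2* was closest to *Cnppd1* (r = 0.94) and *Numa1* (r = 0.93), *Prdm16* to *Utrn* and *Phyh* (both r = 0.92), and *Zfp423* to the chemokine gene *Cxcl9* (r = 0.94) and *Papss2* (r = 0.92). The closest genes to *Cebpd* were *Errfi1*, a feedback inhibitor of EGF receptor signaling (r = 0.86), and *Fen1* (r = 0.81), and those to *Cebpb* were *Tmem251* (r = 0.82, but -0.12 at 29°C) and *Pcna* (r = 0.82). The highest of 11132 values over 13 libraries is large by selection, and these genes are named for their likeness alone.

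The partners, fellow regulators and targets of the members were read from the same fit. They comprised 119 symbols, of which *Ddit3* had 2 identifiers and some stood on several lists. Of 115 genes tested, 5 were called higher and 1 lower at 22°C, 5.22% beside 1.94% of all genes tested, and their median log2 fold change was 0.01. The lists were chosen with earlier results of these data known, which limits the comparison of these shares. Of the calls, 3 came from the brown fat targets of PRDM16 and EBF2. Of 19 partners and coregulators tested, none was called (edgeR), and the median log2 fold change was 0.05. An unadjusted p below 0.05 was found for 5 of the 19, beside 18.5% of all genes tested (edgeR). The 3 most abundant barely differed, with log2 fold changes of 0.02 (SE 0.09) for the corepressor gene *Ncor1*, -0.04 (SE 0.07) for *Rxra*, the dimer partner of PPARγ, and 0.03 (SE 0.12) for the corepressor gene *Nrip1*. Chosen after their values were seen, *Rxrg* had a log2 fold change of 0.59 (P-adj = 0.122, edgeR; SE 0.17), and *Ncoa1* was lower in all cool mice than in all warm mice with -0.16 (P-adj = 0.131, edgeR; SE 0.05).

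Of 22 other adipogenic factors, 8 had a positive and 14 a negative log2 fold change, where 51.6% of all genes tested were positive. None was called, and 4 had an unadjusted p below 0.05, beside 18.5% of all genes tested (edgeR). *Srebf1*, a regulator of lipogenesis, had a log2 fold change of 0.01 (SE 0.14), *Nr3c1*, the glucocorticoid receptor gene, of -0.19 (P-adj = 0.261, edgeR; SE 0.09) and *Klf9* of 0.09 (SE 0.14). Chosen after their values were seen, *Klf2*, which restrains *Pparg* in preadipocytes, had a log2 fold change of 0.47 (P-adj = 0.111, edgeR; SE 0.13) and *Klf4* of 0.56 (P-adj = 0.141, edgeR; SE 0.17). Neither passed, both stood against the 14 negative values of this list, and links of *Klf2* and *Klf4* to the members were not tested.

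Among 23 other browning factors tested, 14 had a positive and 9 a negative log2 fold change, where 51.6% of all genes tested were positive. An unadjusted p below 0.05 was found for 8, beside 18.5% of all genes tested (edgeR), and *Zfp516* alone was called. *Zfp516* (ENSMUSG00000058881.14), which encodes a cold-induced zinc finger partner of PRDM16, was 23.9 to 30.1 CPM at 22°C (median 27.6 CPM) and 17.3 to 22.9 CPM at 29°C (median 21.4 CPM). All 7 cool mice were above all 6 warm mice, and the means were 26.8 ± 2.20 CPM (SD, n = 7) and 20.7 ± 2.37 CPM (SD, n = 6). Its log2 fold change was 0.37 (P-adj = 0.0726, edgeR; SE 0.08). In 13 leave-one-mouse-out fits the P-adj of *Zfp516* was 0.0627 to 0.170 (edgeR), and it lost the call without 22°C replicates 1, 3, 4 or 7 or 29°C replicates 1, 2, 3 or 6. Its log2 fold change was 0.33 (P-adj = 0.346, edgeR; SE 0.13) within the libraries with higher totals and 0.33 (P-adj = 0.213, edgeR; SE 0.10) with the muscle score as a covariate. The most abundant browning factors, *Thra*, *Nfia* and *Ctbp1*, had log2 fold changes of 0.11 (SE 0.12), 0.05 (SE 0.09) and 0.05 (SE 0.08).

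**Figure D4:**
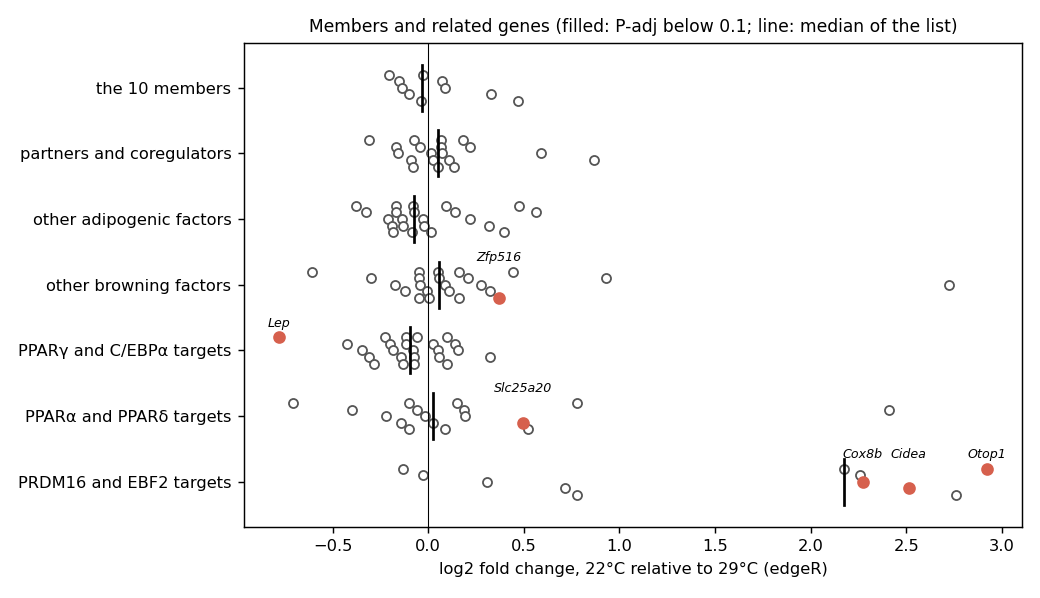
Log2 fold change at 22°C relative to 29°C (horizontal axis) of the 10 members and of 6 lists of related genes (rows); each circle is a tested gene, filled and named where P-adj was below 0.1, and the vertical line is the median of the list. The medians of the members and of the first 5 lists lie between -0.10 and 0.05, while that of the brown fat targets is 2.17 (0.38 with the muscle score in the fit). With the muscle score, the median of the PPARγ and C/EBPα targets is 0.03 in place of -0.10.

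The target genes of the members were listed from general knowledge for 3 groups of factors, and their regulation by the members was not tested here. For PPARγ and C/EBPα, 1 of 24 targets tested was called, the leptin gene *Lep*, which fell by 0.78 on the log2 scale (P-adj = 0.0564, edgeR; SE 0.15) and lost the call without 29°C replicate 1 or 2 (P-adj up to 0.124, edgeR). It also lost the call with the muscle score in the fit (P-adj = 0.145, edgeR), with the replicate block (P-adj = 0.121, edgeR) and with no filter on low counts (P-adj = 0.125, edgeR), at log2 fold changes of -0.76, -0.74 and -0.78. The median of this list was -0.10 with 8 of 24 positive, and 3 had an unadjusted p below 0.05 (edgeR). With the muscle score in the fit the median turned to 0.03, with 15 of 24 positive. The most abundant genes of the list had log2 fold changes of -0.06 (SE 0.15) for *Car3*, -0.08 (SE 0.15) for *Cfd* and -0.12 (SE 0.18) for *Lpl*. For PPARα and PPARδ, 17 of 20 targets were tested, the median was 0.03 and 4 had an unadjusted p below 0.05 (edgeR). Of these, 1 was called, the carnitine carrier gene *Slc25a20* with 0.49 (P-adj = 0.0174, edgeR; SE 0.08). Of the abundant oxidation genes of this list, *Acadm* had a log2 fold change of 0.09 (SE 0.11) and *Hadha* of 0.19 (SE 0.13), and neither passed.
Brown fat targets of PRDM16 and EBF2 had a median log2 fold change of 2.17 over the 11 of 13 that were tested. Skeletal muscle markers moved with them, with all 10 positive and a median of 2.97, and with the muscle score in the fit the median of the brown fat targets was 0.38, with 9 of 11 still positive. It was 1.12 with the replicate block, a fit to which 22°C replicate 7 added nothing, and 1.60 without that library. With limma on the authors' regularized log2 values it was 0.61. Of the 11 genes, 9 were positive and 8 had an unadjusted p below 0.05, beside 51.6% and 18.5% of all genes tested (edgeR). The 3 called were *Cidea* with 2.51 (SE 0.40), *Otop1* with 2.92 (SE 0.59) and *Cox8b* with 2.27 (SE 0.53). Their levels at 29°C were low, with 1.39 to 3.17 CPM for *Cidea*, 0.0752 to 1.39 CPM for *Otop1* and 4.79 to 19.7 CPM for *Cox8b*. At 22°C the same genes had 4.07 to 24.7, 1.34 to 9.59 and 21.2 to 111 CPM. *Ucp1*, which was not among the tested genes, had no counts in 10 libraries and at most 0.369 CPM. Leaving out each mouse gave a P-adj up to 0.0666 for *Cidea*, 0.147 for *Otop1* and 0.179 for *Cox8b* (edgeR), the highest for *Otop1* and *Cox8b* without 29°C replicate 3. *Sod3* at -0.13 (SE 0.16) and *Pdk4* at 0.78 (P-adj = 0.239, edgeR; SE 0.34) did not pass. The 2 factors for which this list is named had, in the same mice, log2 fold changes of -0.04 (P-adj = 0.927, edgeR; SE 0.17, 95% interval -0.40 to 0.32) for *Prdm16* and 0.09 (SE 0.11) for *Ebf2*. With the muscle score in the fit, *Cox8b*, which muscle also expresses, had a log2 fold change of 1.36 (P-adj = 0.169, edgeR; SE 0.34) and *Cidea* of 2.50 (P-adj = 0.0561, edgeR; SE 0.44). In the same fit *Otop1* had 3.35 (P-adj = 0.0825, edgeR, SE 0.64). Within the libraries with higher totals, none of the 6 called related genes passed (P-adj from 0.239 to 0.346, edgeR). The log2 fold changes there were 2.73 for *Cox8b*, 2.47 for *Otop1*, 1.48 for *Cidea*, -0.88 for *Lep*, 0.36 for *Slc25a20* and 0.33 for *Zfp516*.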

How the data were processed

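RNA-seq of gluteal WAT was taken from 7 mice at 22°C and 6 at 29°C, grouped by the labels. The authors aligned reads with STAR 2.7.5a, assigned them to genes with featureCounts, and deposited raw counts together with regularized log2 values from DESeq2. The submitters' processing notes name GRCm39, while the paper names mm10 for cultured cells. The annotation release and the strand setting are not given in the sources used here. Symbols were matched by identifier without version (34006 of 34419 genes).

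Counts were tested with edgeR 4.0.16 in R 4.3.3 (TMM, filterByExpr, quasi-likelihood F test, Benjamini-Hochberg adjustment, P-adj below 0.1, no covariate), and the code was tested on simulated data. SE was obtained as |log2 fold change|/√F, and log2 CPM uses a prior count of 2. Total counts were 22356637 to 25245785, so a count of 0 allows up to 3 counts, 0.119 to 0.134 CPM, for counting error only. Alternatives were DESeq2 1.42.0, limma 3.58.1 on the authors' log2 values, other scalings and filters, robust fitting, muscle and B cell scores, the cluster of totals, the replicate block and leaving out each mouse. Fitting the libraries with higher totals alone was added after the data were seen.

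The members and lists were chosen with earlier results of these data known. Named genes are the 10 members, the 3 most abundant and the called genes of each related list, and the 2 genes closest to each member. A gene that this rule gives is not reported here. *Rxrg*, *Ncoa1*, *Klf2*, *Klf4*, *Ucp1* and the opposite-strand neighbours fall outside this rule and were chosen after their values or positions were seen.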

Additional observations from a re-analysis of the deposited data

How the results depend on the processing

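Over 25 alternatives, 7 of the 10 members kept the sign of their log2 fold change. *Cebpa* turned to -0.10 with the cluster of totals as covariate, to -0.11 within the libraries with higher totals and to -0.026 without 22°C replicate 3 (0.133 at the highest when a mouse was left out, and 0.21 with the muscle score). *Cebpd* turned to 0.067 without 22°C replicate 3, to 0.013 without 22°C replicate 6, to 0.071 without 29°C replicate 3 and to 0.0066 without 29°C replicate 4 (-0.11 at the lowest when a mouse was left out, and -0.15 within the libraries with higher totals). *Prdm16* turned to 0.050 without 22°C replicate 6, to 0.0038 without 22°C replicate 7 and to 0.034 without 29°C replicate 3 (-0.137 at the lowest when a mouse was left out, and -0.52 within the libraries with higher totals). None of these passed, and the cause was not tested.

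Members called numbered 1 with DESeq2 and 1 with the replicate block, *Cebpb* in both cases, and 0 to 1 when each mouse was left out. Genes called over the whole table, 345 by the reported fit (130 higher and 215 lower), were 40 at P-adj below 0.05, 148 with library totals alone, 42 with no filter on low counts, 48 with the muscle score, 109 with the B cell score, 4 with the cluster of totals as covariate, 8 within the libraries with higher totals and 1676 with DESeq2 (914 higher and 762 lower). They numbered 32 (without 29°C replicate 3) to 652 (without 22°C replicate 6) when each mouse was left out. Related genes called, 6 by the reported fit, were 2 with no filter, 3 with the muscle score, 0 with the cluster of totals as covariate, 0 within the libraries with higher totals, 22 with DESeq2 and 2 to 11 when each mouse was left out.

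Replicate numbers are shared by the temperatures, but nothing in the labels pairs the mice. Deviations of same-numbered mice correlated between -0.06 and 0.67, and 3 of 6 numbers correlated best with their own number. With the replicate block, 214 genes passed.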
